A study of Mus musculus with 9 samples.

Results

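The expression of 9 genes of gluconeogenesis and fasting glucose control, *Pck1*, *G6pc*, *Fbp1*, *Pcx*, *Ppargc1a*, *Pklr*, *Igfbp1*, *Irs2* and *Slc2a2*, was compared in livers of fasted mice treated with an antisense oligonucleotide (ASO) against apoC-III or with a control ASO. They were chosen by name for their roles in hepatic glucose production, by a rule that uses no measured value, although earlier results of these data were known, and are 9 of the 51912 genes listed. All 9 were among the 11968 nuclear protein-coding genes tested, so no member was lost to the filter on low values. Each mouse was *Apoe*-/-*Ndst1* f/f *Alb-Cre*+ on a C57Bl/6 background, and received 50 mg/kg/week of ASO by intraperitoneal injection for 8 weeks. The ApoCIII_ASO group held 5 mice and the Control_ASO group held 4, and every liver was sequenced as 1 library. Both groups therefore lacked apoE in the whole body, and both lacked the heparan sulfate sulfotransferase NDST1 in hepatocytes, where the albumin promoter drives Cre, so the control livers were not wild-type livers. What the mice in the sequencing ate is not stated in the sources used here.

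In the fasted state the liver keeps blood glucose up by making glucose from lactate, amino acids and glycerol. Pyruvate carboxylase and phosphoenolpyruvate carboxykinase bypass the irreversible step of pyruvate kinase, fructose-1,6-bisphosphatase bypasses that of phosphofructokinase, and glucose-6-phosphatase releases free glucose, which leaves the hepatocyte through GLUT2. Glucagon acts through cAMP and the transcription factor CREB, glucocorticoids act through their receptor, and the coactivator PGC-1α enhances the response, whereas insulin acts through AKT to keep FOXO1 out of the nucleus. *Igfbp1* and *Irs2* are FOXO1 targets that are high in fasting and low after insulin, and *Pklr* is the opposite kind of gene, induced by glucose and insulin in fed liver. The comparison asked whether these genes differed in livers in which apoC-III had been lowered.

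The deposited values were TPM, a gene's length-corrected share of the transcripts in a library, and such shares hold no record of sequencing depth, so it is unknown here and counting error is not given. Nuclear protein-coding genes held 3.04% to 5.31% of the total with apoC-III ASO, and 8.64%, 5.42%, 5.64% and 1.94% in control ASO replicates 1 to 4. Values below are rescaled TPM, in which these genes sum to 1000000 in each liver before division by a median-of-ratios factor, which sets the typical gene equal across livers. *Apoc3*, the target of the ASO, was at 450 ± 112 rescaled TPM (SD, n = 5) with apoC-III ASO and at 3577 ± 493 (SD, n = 4) in control ASO livers, 87.4% lower, and the groups did not overlap (exact two-sided permutation test on the absolute difference, p = 0.00794, the smallest that 5 livers against 4 allow). The 8 hepatocyte markers summed to between 25869 and 56944 rescaled TPM in apoC-III ASO livers and between 35253 and 44923 in control ASO livers, and all 8 were above 0 in every liver. In whole liver, fewer cells of a type and less RNA per cell cannot be told apart.

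The livers were not uniform within their groups, in 2 ways that touched the members. Control ASO replicate 4 had the smallest protein-coding share and correlated less with the other livers (r from 0.856 to 0.896 across genes) than the other livers did with each other (0.905 to 0.946). Its 6 stellate cell markers summed to 259 rescaled TPM against 134 to 175 in the other controls and 120 to 147 in the apoC-III ASO group. Most of that sum was *Dcn*, at 177. *Dcn*, *Lrat* and *Col1a1* were highest of the 9 livers there, but *Reln*, *Col3a1* and *Pdgfrb* were not. Lymphocyte markers summed to 24.2 against 12.1 to 13.1 in the other controls. The median-of-ratios factor that divided its values was 0.496, against 0.930 to 1.44 in the other livers, and its part in these sums was not tested. Apart from this, apoC-III ASO replicates 1 to 3 differed from the other 6 livers in clock genes, which follow the time of day. The core activator *Arntl* was expressed at 17.7, 11.1 and 30.9 rescaled TPM by apoC-III ASO replicates 1 to 3, but at 0.740 and 2.74 in replicates 4 and 5 and between 0.320 and 2.46 in the controls. The output gene *Dbp* was at 2.92, 22.2 and 2.70 in replicates 1 to 3, at 152 and 97.7 in replicates 4 and 5 and between 68.2 and 103 in the controls. The times of tissue collection are not given in the sources used here. Results are therefore given for all livers and without control ASO replicate 4, with the values of apoC-III ASO replicates 1 to 3 stated where they lay apart.

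The promoter sequences of 4 members are shown, because *Pck1*, *G6pc*, *Ppargc1a* and *Igfbp1* are known to respond to fasting hormones. In rescaled TPM they were also highest among the controls in control ASO replicate 4. In TPM as deposited only *Igfbp1* was highest there, while *Pck1* and *G6pc* were the lowest of the controls. The sequences are RefSeq sequences of GRCm38.p6, 5′ to 3′ on the strand of the gene. They begin 250 bases before the RefSeq start and stop before the first base of any annotated transcript. Capitals mark the motif described after them. The stretches are chr2:173152823-173153047 for *Pck1* (plus strand), chr11:101367466-101367560 for *G6pc* (plus strand), chr5:51567727-51567975 for *Ppargc1a* (minus strand) and chr11:7197537-7197781 for *Igfbp1* (plus strand).
Pck1: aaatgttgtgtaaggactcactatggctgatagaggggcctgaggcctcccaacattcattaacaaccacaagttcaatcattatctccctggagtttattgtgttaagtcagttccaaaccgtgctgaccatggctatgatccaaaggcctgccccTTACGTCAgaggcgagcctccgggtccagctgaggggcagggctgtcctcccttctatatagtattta
G6pc: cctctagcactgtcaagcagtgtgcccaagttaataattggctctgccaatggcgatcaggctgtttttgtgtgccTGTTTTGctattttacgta
Ppargc1a: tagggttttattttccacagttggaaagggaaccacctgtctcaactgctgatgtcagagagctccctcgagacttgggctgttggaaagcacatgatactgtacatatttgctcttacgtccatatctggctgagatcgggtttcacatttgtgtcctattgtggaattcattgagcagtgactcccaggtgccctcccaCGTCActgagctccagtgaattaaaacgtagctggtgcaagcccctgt
Igfbp1: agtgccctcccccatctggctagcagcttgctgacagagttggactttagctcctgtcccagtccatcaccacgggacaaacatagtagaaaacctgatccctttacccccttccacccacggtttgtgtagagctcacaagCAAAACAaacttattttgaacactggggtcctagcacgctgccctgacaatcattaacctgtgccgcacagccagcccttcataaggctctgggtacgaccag
The capitals in *Pck1* are TTACGTCA, a CREB motif, at −93 to −86 from the start, a stretch that also holds the shorter CREB motif TGACG on the other strand. Of the 32851 promoters in the RefSeq table, 0.447% held TTACGTCA and 17.8% held TGACG on either strand within the same 250 bases. The capitals in *Ppargc1a* are CGTCA, which is TGACG on the other strand, at −49 to −45. The capitals in *Igfbp1*, CAAAACA at −108 to −102, and in *G6pc*, TGTTTTG at −174 to −168, are the same insulin response motif bound by FOXO1, read on opposite strands, which 5.56% of the promoters held. *Irs2* also held CAAAACA, at −37 to −31 on the other strand, and the E-box CACGTG at −44 to −39, which 6.02% of promoters held and *Pcx* held at −248 to −243. The TATA box TATAAA, held by 12.4% of promoters, matched in *G6pc* and at the second start of *Pklr*. The palindromic CREB motif TGACGTCA (1.55% of promoters), the FOXO motif TGTTTAC (3.17%) and the glucocorticoid receptor motif AGAACA (16.1%) had no match in the windows of any of the 9 members, and no motif searched matched in *Fbp1* or *Slc2a2*. A match shows only that these letters are present, and binding was not measured.

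No member passed the test between the groups. None of the 9 was called, which took over 1.5-fold and an adjusted p under 0.05 (limma with Benjamini-Hochberg adjustment over all genes tested), against 2 of the 11968 genes (0.0167%), *Apoc3* and *Anpep*, both lower. None had an unadjusted p under 0.05, against 667 genes (5.57%), 359 of them higher (3.0%) and 308 lower (2.57%) with apoC-III ASO. The groups overlapped in every member, whereas they did not in 219 genes (1.83%). On the log2 scale 3 members were higher and 6 lower with apoC-III ASO, where 50.1% of all genes tested were lower, and the median log2 fold change of the members was −0.15 against −0.00 for all genes. Without control ASO replicate 4, 6 members were higher and 3 lower, and their median was 0.00; with no median-of-ratios factors 8 were higher and 1 lower, and in TPM as deposited 5 were higher and 3 lower of the 8 tested. With a pseudocount of 1, the differences of low genes are understated. The p-values set each difference against the variation between these livers, in which counting error and differences between mice are mixed.

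**Figure D1:**
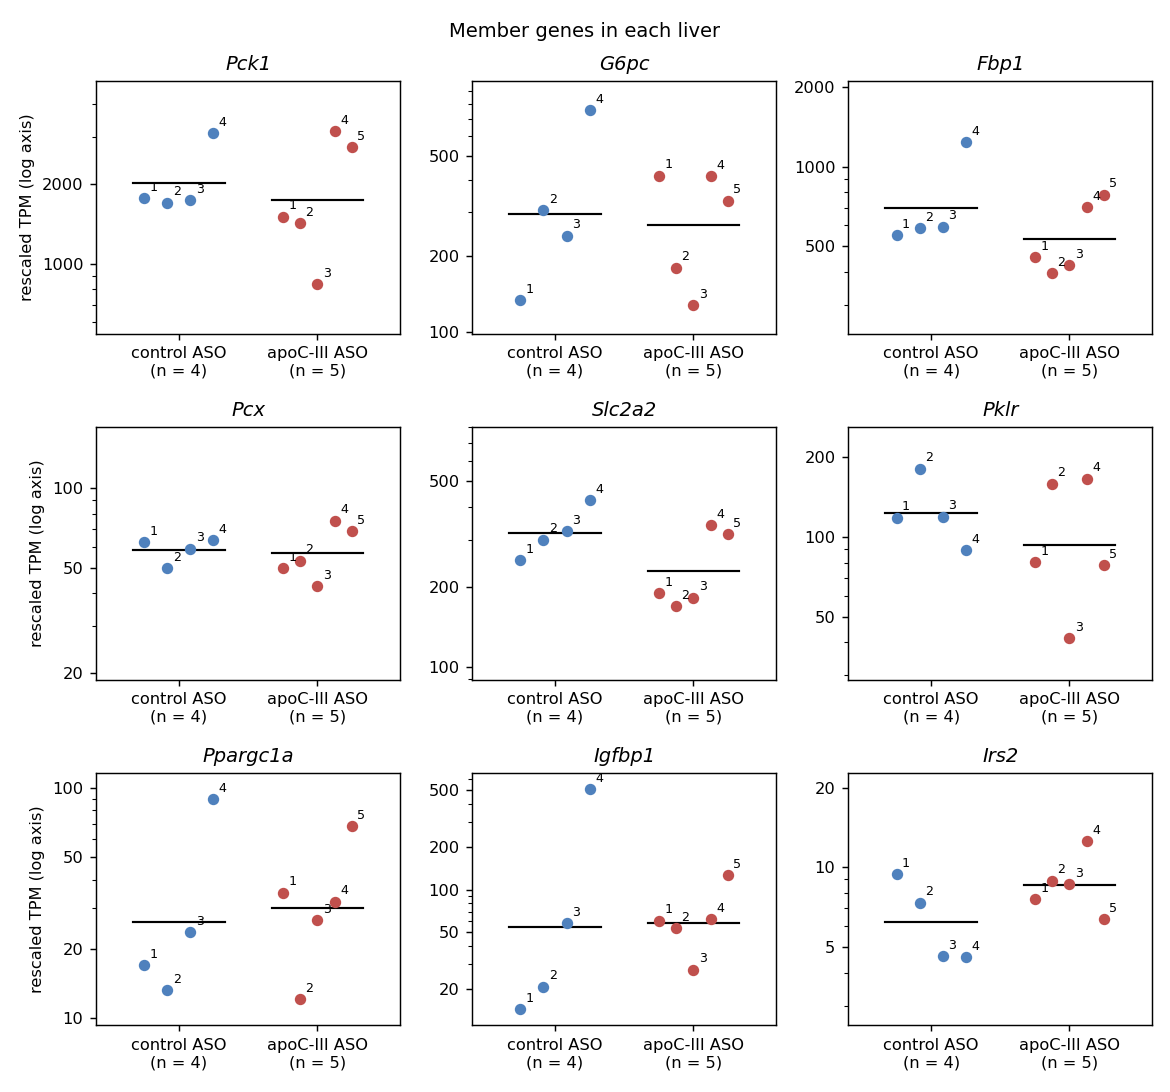
Rescaled TPM of the 9 member genes in each liver, on log axes, with the replicate number beside each point. Blue points are control ASO livers (n = 4), red points apoC-III ASO livers (n = 5), and black lines are geometric means. The groups overlap in every panel, and control ASO replicate 4 is the highest control for *Pck1*, *G6pc*, *Fbp1*, *Pcx*, *Slc2a2*, *Ppargc1a* and *Igfbp1*.

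The 4 gluconeogenic enzymes were abundant, and their differences were smaller than the spread between livers. *Pcx* (ENSMUSG00000024892, chromosome 19 from 4510472 to 4621752, plus strand, GRCm38), which makes oxaloacetate from pyruvate, was at 49.9, 53.2, 42.7, 75.3 and 68.6 rescaled TPM in apoC-III ASO livers and at 62.3, 49.8, 59.0 and 63.7 in control ASO livers. It was the steadiest member, with a within-group SD of 0.270 on the log2 scale, larger than that of 13.7% of the genes tested, and its log2 fold change was −0.04 (SE 0.22, 95% interval −0.52 to 0.43, adjusted p = 0.992, limma; p = 0.833, exact permutation test). The interval corresponds to between 0.699-fold and 1.35-fold, which in this fit lies within the 1.5-fold threshold in both directions. With a covariate for the clock genes described above, it was −0.22 to 0.74 on the log2 scale, which goes past that threshold. With no median-of-ratios factors the log2 fold change itself was 0.43.

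*Pck1* (ENSMUSG00000027513, chromosome 2 from 173153048 to 173159273, plus strand), which converts oxaloacetate to phosphoenolpyruvate and is the classic target of glucagon, glucocorticoids and insulin in this pathway, was at 1502, 1422, 839, 3163 and 2753 rescaled TPM in apoC-III ASO livers. It was at 1769, 1699, 1737 and 3108 in control ASO livers, where replicate 4 was 1.79 times the mean of the other 3. The apoC-III ASO livers lay on both sides of the controls, with replicates 1 to 3 below every control and replicate 4 above every control. Its log2 fold change was −0.21 (SE 0.39, interval −1.06 to 0.63, adjusted p = 0.973, limma; p = 0.659, exact permutation test), and 0.00 without control ASO replicate 4.

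*Fbp1* (ENSMUSG00000069805, chromosome 13 from 62864753 to 62888282, minus strand), which removes phosphate from fructose-1,6-bisphosphate, was at 455, 396, 425, 704 and 783 rescaled TPM with apoC-III ASO and at 551, 586, 593 and 1241 with control ASO. Here too apoC-III ASO replicates 1 to 3 lay below all controls, and control ASO replicate 4 lay above all other livers. Its log2 fold change was −0.40 (SE 0.31, interval −1.08 to 0.29, adjusted p = 0.916, limma; p = 0.286, exact permutation test), and −0.12 without control ASO replicate 4. *G6pc* (ENSMUSG00000078650, chromosome 11 from 101367561 to 101377903, plus strand), the catalytic subunit of glucose-6-phosphatase, was at 417, 180, 128, 414 and 332 rescaled TPM with apoC-III ASO. In control ASO livers it was at 135, 304, 241 and 758, so that the lowest control was near the lowest treated liver and replicate 4 was above all others. Its log2 fold change was −0.15 (SE 0.49, interval −1.22 to 0.93, adjusted p = 0.991, limma; p = 0.825, exact permutation test), and 0.31 without that liver.

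*Slc2a2* (ENSMUSG00000027690, chromosome 3 from 28697903 to 28731359, plus strand) encodes GLUT2, the glucose carrier of the hepatocyte surface. It was at 189, 169, 182, 343 and 316 rescaled TPM in apoC-III ASO livers and at 252, 302, 325 and 425 in control ASO livers. Replicates 1 to 3 of the apoC-III ASO group lay below every control, while replicates 4 and 5 lay among the controls. It had the smallest p of the members, and its log2 fold change was −0.48 (SE 0.27, interval −1.08 to 0.12, adjusted p = 0.900, limma; p = 0.127, exact permutation test), and −0.34 without control ASO replicate 4.

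*Pklr* (ENSMUSG00000041237, chromosome 3 from 89136142 to 89146784, plus strand), the liver pyruvate kinase that runs against gluconeogenesis, was at 80.5, 159, 41.6, 166 and 78.0 rescaled TPM with apoC-III ASO and at 118, 181, 119 and 89.1 with control ASO. Control ASO replicate 4 was the lowest of the controls for this gene, at 0.639 times the mean of the other 3. This was in contrast to its high values of the gluconeogenic enzymes in rescaled TPM. The log2 fold change was −0.40 (SE 0.39, interval −1.25 to 0.45, adjusted p = 0.943, limma; p = 0.413, exact permutation test). The ratio of *Pck1* to *Pklr*, which no scaling of a liver can alter, was between 8.95 and 35.3 in apoC-III ASO livers and between 9.38 and 34.9 in control ASO livers (p = 0.659, exact permutation test of the log2 ratio).

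*Ppargc1a* (ENSMUSG00000029167, chromosome 5 from 51454250 to 51567726, minus strand), which encodes the coactivator PGC-1α, was at 35.1, 12.1, 26.7, 32.0 and 68.2 rescaled TPM in apoC-III ASO livers. In control ASO livers it was at 16.96, 13.2, 23.7 and 89.8, and replicate 4 was 5.0 times the mean of the other 3. Its within-group SD of 1.02 was larger than that of 95.4% of the genes tested. The log2 fold change was 0.19 (SE 0.56, interval −1.03 to 1.40, adjusted p = 0.990, limma; p = 0.794, exact permutation test), and 0.77 without control ASO replicate 4 (unadjusted p = 0.116, adjusted p = 0.944, limma), and its adjusted p was between 0.483 and 0.9997 over all alternatives.

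*Igfbp1* (ENSMUSG00000020429, chromosome 11 from 7197782 to 7202546, plus strand), a secreted binding protein of the insulin-like growth factors, was the member that differed most between livers. It was at 60.5, 53.4, 27.4, 62.1 and 126.2 rescaled TPM with apoC-III ASO and at 14.5, 20.9, 58.4 and 509 with control ASO, a 35.1-fold range among the controls and 4.604-fold among the treated livers. Control ASO replicate 4 was 16.3 times the mean of the other 3 controls, and the within-group SD of 1.59 was larger than that of 98.9% of the genes tested. The log2 fold change was 0.08 (SE 0.85, interval −1.77 to 1.93, adjusted p = 0.998, limma; p = 0.929, exact permutation test). Without control ASO replicate 4 it was 1.14 (SE 0.50, interval 0.03 to 2.26, unadjusted p = 0.0456, adjusted p = 0.915, limma), but other livers moved it the other way: leaving out apoC-III ASO replicate 5 gave −0.19, and leaving out control ASO replicate 1 or 2 gave −0.54 or −0.38, so both its sign and its size depended on single livers. Control ASO replicate 3 still lay above 2 of the 5 treated livers, and over all alternatives the adjusted p of *Igfbp1* was between 0.633 and 0.9997.

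*Irs2* (ENSMUSG00000038894, chromosome 8 from 10984681 to 11008458, minus strand), the insulin receptor substrate that carries much of the fasting liver's insulin signal, was the least abundant member, at 7.57, 8.91, 8.63, 12.5 and 6.37 rescaled TPM with apoC-III ASO and at 9.45, 7.35, 4.63 and 4.59 with control ASO. The highest control exceeded 4 of the 5 treated livers. The log2 fold change was 0.41 (SE 0.27, interval −0.18 to 0.99, adjusted p = 0.902, limma; p = 0.167, exact permutation test). *Igfbp1* and *Irs2*, both known FOXO1 targets, were not high in the same livers: control ASO replicate 4 had the highest *Igfbp1* and the lowest *Irs2*, the latter just below replicate 3. Their ratio was 110.7 in that liver, against 1.53 to 12.6 in the other controls and 3.18 to 19.8 in apoC-III ASO livers. That ratio rests on a low value, as *Irs2* was at 0.0443 TPM as deposited there, against 0.184 to 0.760 in the other livers.

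**Figure D2:**
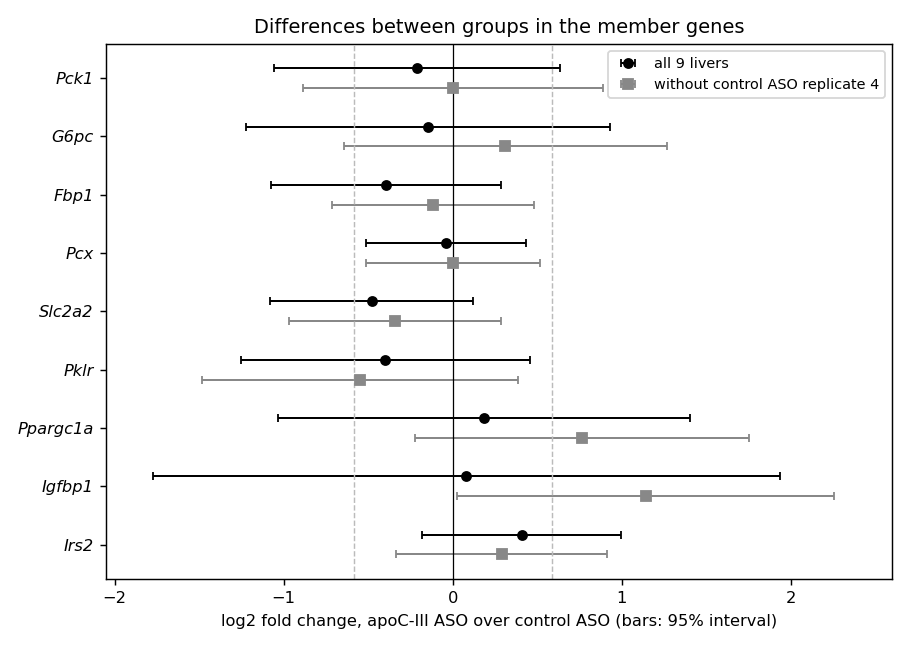
Log2 fold change of each member, apoC-III ASO over control ASO, with 95% intervals from limma, in all 9 livers (black circles) and without control ASO replicate 4 (grey squares). Dashed lines mark 1.5-fold. All black intervals include 0, and the interval of *Igfbp1* is the widest, from −1.77 to 1.93, and lies above 0, from 0.03 to 2.26, without that liver.

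The members spanned a wide range of levels, compared here per length. By geometric mean of rescaled TPM over the 9 livers, *Pck1* was at 1849, *Fbp1* at 600, *G6pc* at 278, *Slc2a2* at 266, *Pklr* at 105, *Pcx* at 57.5, *Igfbp1* at 57.3, *Ppargc1a* at 28.5 and *Irs2* at 7.47. *Pck1* exceeded *Fbp1*, *Fbp1* exceeded *G6pc*, *Slc2a2* exceeded *Pklr* and *Ppargc1a* exceeded *Irs2* in 9 of 9 livers. *Pklr* exceeded *Pcx*, and *Igfbp1* exceeded *Ppargc1a*, in 8 of 9. *G6pc* exceeded *Slc2a2* in 6 of 9 and *Pcx* exceeded *Igfbp1* in 5 of 9, so these last 4 pairs of neighbours were not separated beyond their spread.

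Within the apoC-III ASO group, 5 members separated, in rescaled TPM, the livers that also differed in clock genes. The share of all genes that did so was not computed, so this count has no background beside it. In replicates 1 to 3, with high *Arntl* and low *Dbp*, *Pck1* was between 839 and 1502 rescaled TPM, against 2753 and 3163 in replicates 4 and 5. *Fbp1*, *Pcx*, *Igfbp1* and *Slc2a2* were also lower in each of replicates 1 to 3 than in replicates 4 and 5, whereas *G6pc*, *Ppargc1a*, *Pklr* and *Irs2* overlapped. In TPM as deposited all 5 overlapped as well, with *Pck1* at 39.6 to 108 in replicates 1 to 3 and at 164 and 79.4 in replicates 4 and 5. With the log2 difference of *Arntl* and *Dbp* in each liver added to the fit as a covariate, an alternative chosen after seeing the data, no member was called and the log2 fold changes were 0.42 (SE 0.35) for *Pck1*, 0.26 (SE 0.22) for *Pcx*, −0.11 (SE 0.36) for *Fbp1* and −0.13 (SE 0.29) for *Slc2a2*. The sign of *Pck1*, *Pcx*, *G6pc* and *Pklr* was thus the reverse of that without it. Because 3 of the 5 apoC-III ASO livers and none of the control livers had this pattern, the effects of the ASO and of the clock pattern cannot be fully told apart.

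Across the 9 livers, several members varied together. Of the 36 pairs of members, 28 had a positive Pearson's r on the log2 scale, and 5 passed an adjusted p under 0.05 (exact permutation test, Benjamini-Hochberg over the 36 pairs). The closest pair was *Fbp1* and *Slc2a2*, with r = 0.92 and Spearman's rho = 0.95 (exact permutation test, p = 7.16e-05 and 3.53e-04, adjusted p = 0.00258 and 0.0127). Without the 2 livers farthest from the median *Fbp1* value, r was 0.90. On deviations from the group means it was 0.91.

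*Pck1* and *Pcx* followed with r = 0.91 and rho = 0.92 (exact permutation test, p = 6.61e-04 and 0.00131, adjusted p = 0.0119 and 0.0236), and r = 0.79 without the 2 farthest livers. *Pck1* was related to *Fbp1* (r = 0.84, rho = 0.88, adjusted p = 0.0303 and 0.0277, exact permutation test) and to *Slc2a2* (r = 0.83, rho = 0.88, adjusted p = 0.0303 and 0.0277, exact permutation test), and r was 0.95 and 0.82 without the 2 farthest livers. *Ppargc1a* and *Igfbp1* had r = 0.84 and rho = 0.83 (adjusted p = 0.0303 and 0.0595, exact permutation test), but r was 0.47 without control ASO replicate 4 and apoC-III ASO replicate 5, so this relation rests on those livers. *Irs2* had a negative r with 6 of the other 8 members, down to −0.56 with *Igfbp1* (adjusted p = 0.237, exact permutation test), but in TPM as deposited it had a negative r with *Igfbp1* alone (−0.47) and r up to 0.89, with *Pcx*, so the direction turned with the scaling. The livers share 1 scaling factor across genes, and the low values of apoC-III ASO replicates 1 to 3 enter each of the *Pck1*, *Fbp1*, *Pcx* and *Slc2a2* pairs.

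**Figure D3:**
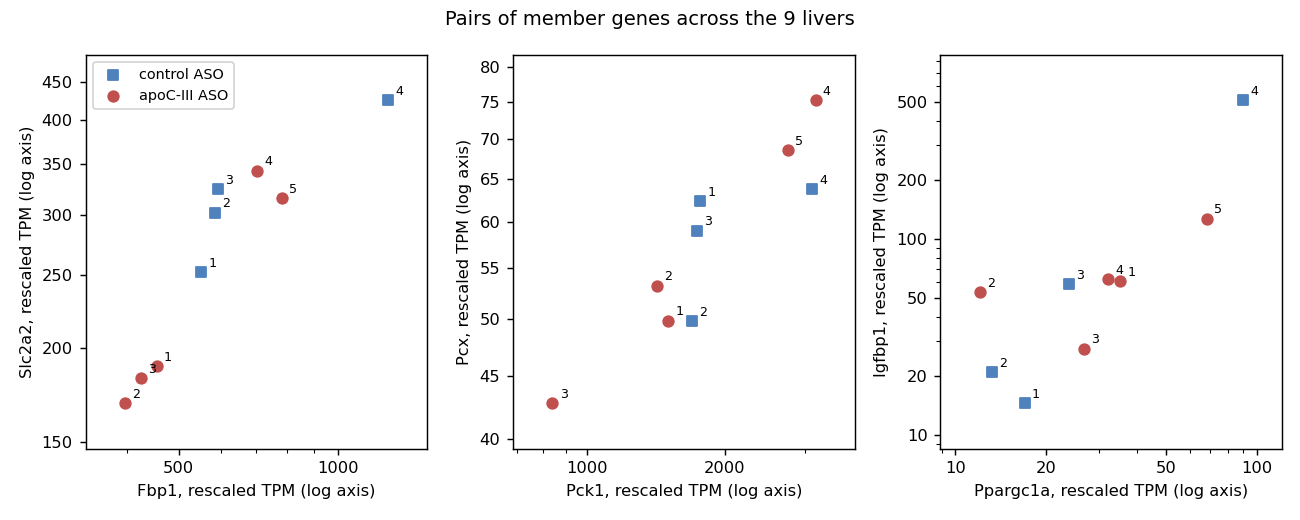
Rescaled TPM of 3 pairs of members in the 9 livers, on log axes, with replicate numbers (blue squares, control ASO, n = 4; red circles, apoC-III ASO, n = 5). *Fbp1* and *Slc2a2* (r = 0.92) and *Pck1* and *Pcx* (r = 0.91) form a band with apoC-III ASO replicates 1 to 3 at its lower end, while *Ppargc1a* and *Igfbp1* (r = 0.84) depend on the 2 livers at the upper right.

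Among 171 other genes of the pathway lists below, the closest pattern over the 9 livers to *Pck1* was that of *Tat* (r = 0.95), the tyrosine aminotransferase induced by glucocorticoids. *Tat* was at 730, 636, 346, 2270 and 1616 rescaled TPM in apoC-III ASO livers and at 803, 783, 923 and 4172 in control ASO livers. *Got2*, the mitochondrial aspartate aminotransferase, and *Slc37a4*, the glucose-6-phosphate carrier, followed (r = 0.94 and 0.91). The closest to *G6pc* were *Txnip* (r = 0.91), a glucose-induced gene that restrains glucose uptake, *Pdha1* (0.89) and *Ugp2* (0.87). The closest to *Fbp1* were *Igfbp2* (r = 0.95), *Tat* (0.93) and *Slc2a2* (0.92), and to *Slc2a2* the phosphoglucomutase gene *Pgm2* (0.95), *Fbp1* (0.92) and *Igfbp2* (0.92). *Pcx* was closest to the transcription factor gene *Foxo1* (r = 0.92), *Pck1* (0.91) and *Cebpb* (0.90), and *Irs2* to the protein kinase A gene *Prkaca* (0.92), *Crtc2* (0.68) and *Junb* (0.68). *Igfbp1* was closest to the aspartate aminotransferase gene *Got1* (r = 0.84), *Ppargc1a* (0.84) and *Txnip* (0.82), and *Ppargc1a* to *Igfbp1* (0.84), *Mdh2* (0.83) and *Aldoa* (0.81). *Pklr* was closest to the transcription factor gene *Klf15* (r = 0.80), *Nr1d2* (0.78) and *Pfkfb3* (0.78).

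The other genes of the pathway were read from lists of general knowledge, and none of their genes was called in any list. Of the gluconeogenic enzymes, 19 of 21 were tested, 3 were higher and 16 lower with apoC-III ASO, and the median log2 fold change was −0.15. That direction depended on scaling: with no median-of-ratios factors 17 were higher and 2 lower, in TPM as deposited 13 were higher and 6 lower, and without control ASO replicate 4 the split was 8 and 11. Of the 8 hepatocyte markers, 7 were lower and 1 higher (median −0.21), 5 and 3 without control ASO replicate 4, and 1 and 7 with no median-of-ratios factors and in TPM as deposited, and their part in the counts of enzymes was not tested. The highest enzyme was *Gpd2*, a mitochondrial glycerol phosphate dehydrogenase, at a log2 fold change of 0.24 (SE 0.34). In this list only *Ldha* passed an unadjusted p under 0.05. *Ldha*, the lactate dehydrogenase subunit of lactate uptake into the pathway, was at 268 ± 68.7 rescaled TPM (SD, n = 5) against 443 ± 149 (SD, n = 4). The difference was −0.71 on the log2 scale (SE 0.27, adjusted p = 0.873, limma). Without control ASO replicate 4, which was at 653 against 327 to 446 in the other controls, it was −0.50 (unadjusted p = 0.0787, limma).

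Genes of glycolysis and pyruvate oxidation gave 9 higher and 19 lower of 28 (median −0.10), and 14 and 14 without control ASO replicate 4, 10 and 9 in TPM as deposited and 23 and 5 with no median-of-ratios factors. The largest difference was that of *Pdk4*, a pyruvate dehydrogenase kinase induced in fasting, whose log2 fold change was 0.91 (SE 0.69, adjusted p = 0.913, limma). *Pdk4* was at 3.67, 7.39, 14.8, 4.65 and 23.5 rescaled TPM with apoC-III ASO and at 1.62, 1.78, 2.71 and 24.8 with control ASO. In rescaled TPM all 5 treated livers lay above control ASO replicates 1 to 3, while replicate 4 was higher than every other liver. Without replicate 4 the log2 fold change was 1.72 (unadjusted p = 0.0062, adjusted p = 0.806, limma). In TPM as deposited the treated livers were at 0.2406 to 0.697 and the controls at 0.112 to 0.2396, without overlap. The share of all genes without overlap on that scale was not computed, and *Pdk4* was too low there to be tested. With no median-of-ratios factors *Pdk4* had an unadjusted p under 0.05 (limma) but was not called. The lowest of the list was the phosphoglycerate kinase gene *Pgk1*, at −0.68 (SE 0.54), and −0.16 without control ASO replicate 4.

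On the side of glucagon and cAMP, 22 of 30 genes were higher and 8 lower with a median of 0.13, none at an unadjusted p under 0.05, and the split was 16 and 14 without control ASO replicate 4, 12 and 2 in TPM as deposited and 30 and 0 with no median-of-ratios factors, where *Crtc2* and *Hnf4a* had an unadjusted p under 0.05. Its extremes were *Foxa2*, a factor that opens liver promoters, at a log2 fold change of 0.47 (0.03 without control ASO replicate 4), and *Creb1*, the gene of CREB, at −0.41 (−0.39 without it). Genes of insulin signaling were higher in 13 and lower in 9 of 22 (median 0.07), with 11 and 11 without that liver, 9 and 1 in TPM as deposited and 22 and 0 with no median-of-ratios factors. Among these *Socs3*, a feedback inhibitor of cytokine and insulin receptors, differed by 1.85 on the log2 scale (SE 0.83, adjusted p = 0.876, limma), and by 1.12 without control ASO replicate 4, which was at 0.362 rescaled TPM against 4.64 to 13.9 in the other controls. The lowest value in this list was that of *Ptpn1*, a phosphatase of the insulin receptor, at −0.39 (SE 0.29). FOXO1-induced genes of fasted liver were higher in 8 and lower in 7 of 15 (median 0.02). The split was 10 and 5 without control ASO replicate 4, with *Pdk4*, *Sesn3* and *Igfbp1* at an unadjusted p under 0.05, 6 and 2 in TPM as deposited and 14 and 1 with no median-of-ratios factors. The lowest log2 fold change was −1.01 (SE 0.63), of the growth arrest gene *Gadd45a*. Of these genes, *Sesn3*, a FOXO1 target that restrains mTORC1, was at 7.78 to 12.1 rescaled TPM in apoC-III ASO livers. In control ASO livers it was at 5.26 to 6.34, without overlap, as in 1.83% of all genes tested. In TPM as deposited the groups overlapped, at 0.275 to 0.574 against 0.0508 to 0.510. The log2 fold change of *Sesn3* was 0.64 (SE 0.21, unadjusted p = 0.0092, adjusted p = 0.860, limma), which did not pass the adjusted threshold.

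Genes induced by insulin or glucose in fed liver, to which *Pklr* belongs, were higher in 3 and lower in 11 of 14, with a median of −0.34. Without control ASO replicate 4 the split was 2 and 12, and with no median-of-ratios factors it turned to 10 and 4. *Acaca*, *Thrsp* and *Elovl6*, which serve fatty acid synthesis, had unadjusted p-values under 0.05, with log2 fold changes of −0.97 (SE 0.37), −1.68 (SE 0.70) and −1.26 (SE 0.57) and adjusted p of 0.869, 0.876 and 0.876 (limma). Without control ASO replicate 4 these were −1.39, −1.78 and −1.29 (unadjusted p = 2.1e-04, 0.0493 and 0.0715, adjusted p = 0.423, 0.915 and 0.944, limma). *Acaca* was at 39.2 rescaled TPM in that liver, against 92.8 to 171 in the other controls and 40.0 to 64.0 with apoC-III ASO. *Thrsp* stood at 28.7, 49.7 and 33.8 rescaled TPM in replicates 1 to 3 of the apoC-III ASO group, at 299.6 and 242 in replicates 4 and 5 and between 161 and 590 in the controls. With the clock covariate its log2 fold change was −0.26 and that of *Elovl6* −0.14, whereas that of *Acaca* was −0.78. The highest gene of the list, *Mlxipl*, which encodes the glucose sensor ChREBP, was at 0.22 (SE 0.43) and at −0.30 without control ASO replicate 4. The part of the clock pattern in these values was otherwise not tested.

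**Figure D4:**
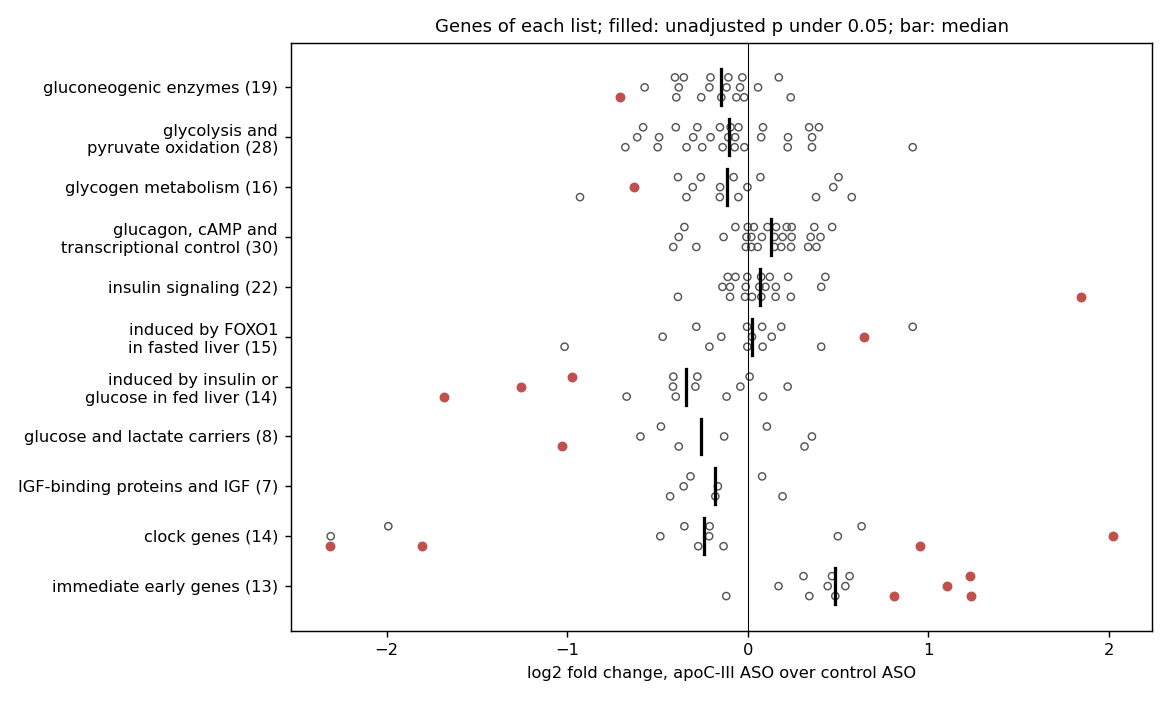
Log2 fold change, apoC-III ASO over control ASO, of every tested gene in 11 lists, with the number tested in parentheses. Filled red points have an unadjusted p under 0.05 in limma, open points do not, and black bars are list medians. The medians lie between −0.34 for genes induced by insulin or glucose and 0.49 for immediate early genes, and no point passed the adjusted threshold.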

How the data were processed

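Liver RNA of 9 fasted mice, 5 in the ApoCIII_ASO and 4 in the Control_ASO group by sample title, was sequenced as single-end, stranded libraries after removal of ribosomal RNA. The authors deposited TPM per gene, for which the submitters' processing notes name kallisto 0.43.1 and GRCm38. The methods of the study name a count-based workflow (STAR, featureCounts and DESeq2), and those counts were not used here. TPM keeps no depth, so precision is given by the spread between livers.

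Identifiers were matched to GENCODE M21 (51719 of 51912). Values of the 21857 nuclear protein-coding genes were set to sum to 1000000 in each liver, then divided by their median-of-ratios factors, because 7SL RNA and mitochondrial ribosomal RNA take most of the deposited TPM. The 11968 genes with a mean of at least 1 were fitted on log2(value + 1) by lmFit and trended eBayes of limma 3.58.1, run in R 4.3.3, without covariates. A call took over 1.5-fold and an adjusted p (Benjamini-Hochberg) under 0.05. Exact two-sided permutation tests used the absolute difference over every way to label 5 of 9 livers. Steps were tested on simulated data. Other steps ran in Python 3.11.15 with scipy 1.17.1, numpy 2.4.6, matplotlib 3.10.9 and pandas 2.3.3.

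The members, the 11 pathway lists and 6 marker lists, the motifs and the scaling were chosen with earlier results of these data known. Besides the members and *Apoc3*, the genes named were, from each list, up to 5 with an unadjusted p under 0.05 and those with the largest and smallest log2 fold change, and for each member the 3 list genes with the highest r. *Anpep*, *Dbp*, *Hnf4a*, the single stellate cell markers and the values of *Tat* and *Txnip* by liver were singled out after their values were seen. Alternatives covered scaling, pseudocounts of 0.5 and 5, the filter, eBayes options, array weights, a replicate block and each liver left out. A clock covariate, and combinations with leaving out control ASO replicate 4, were added after seeing the data.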

Additional observations from a re-analysis of the deposited data

Results flagged for a closer look

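Of 80 combinations of a gene and a group (40 genes), 9 were flagged. In each, the gap from 1 liver to the nearest other liver exceeded Dixon's 95% critical value for the range of its group. Chance flags about 1 in 20 for unselected, normally distributed values. Here the values were not log-transformed and shared 1 scaling factor per liver. Many of the genes were named for their p or fold change, so that rate need not hold. Control ASO replicate 4 was the flagged liver in 7 of the 9. For 4 members it was far above the other controls: *Pck1* at 3108 rescaled TPM (others 1699 to 1769), *Fbp1* at 1241 (551 to 593), *Ppargc1a* at 89.8 (13.2 to 23.7) and *Igfbp1* at 509 (14.5 to 58.4). In the same liver *Pdk4* was at 24.8 (1.62 to 2.71), *Ppp1r3g*, a subunit that directs phosphatase to glycogen, at 9.14 (0.518 to 1.24), and the immediate early gene *Dusp1* at 20.3 (10.47 to 11.4). In the apoC-III ASO group, *Fos* was at 5.96 in replicate 1 (others 2.38 to 3.14) and *Gadd45a*, a growth arrest gene, at 15.6 in replicate 3 (others 0 to 2.12). Control ASO replicate 4 also had the smallest protein-coding share of TPM, 1.94%, and its part in these values was not tested.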

How the results depend on the processing

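Of 205 member values under alternatives, 176 kept their sign and side of the threshold and 29 reversed. A minimum of 5, no filter, eBayes without a trend and robust eBayes cannot alter a log2 fold change, so the signs they kept were fixed in advance. No member was called in any alternative, the lowest adjusted p being 0.451 (*Irs2*, no median-of-ratios factors, limma). No median-of-ratios factors moved the median of all genes to 0.41 and gave 0.33 for the members' median, 0.27 for *Pck1*, 0.33 for *G6pc*, 0.083 for *Fbp1*, 0.43 for *Pcx* and 0.074 for *Pklr*, with 1 gene called lower. TPM as deposited gave 0.12 for *Pck1*, 0.19 for *G6pc* and 0.12 for *Pcx*, −2.62 for *Apoc3* (missing the threshold), 5 genes called higher and 6 lower, and 15 pairs of members; without control ASO replicate 4 the calls were 1 and 3. The clock covariate gave 0.26 for the members' median, 0.42 for *Pck1*, 0.094 for *G6pc*, 0.26 for *Pcx* and 0.12 for *Pklr*, with 1 gene called lower. Quantile normalization gave 0.094 for *Pck1* and array weights 0.087 for *G6pc*. Median-of-ratios factors of all genes called 1 gene higher and 1 lower, and a pseudocount of 5, no filter and eBayes without a trend 1 lower. Leaving out each liver gave −0.43 to 0.045 for *Pck1*, −0.52 to 0.31 for *G6pc*, −0.14 to 0.053 for *Pcx*, −0.13 to 0.77 for *Ppargc1a*, −0.54 to 1.14 for *Igfbp1*, and 0 to 1 genes called higher and 1 to 3 lower. Apart from the settings themselves, the cause was not tested. Whether the replicate numbers paired the mice could not be settled from so few same-numbered livers. Their deviations correlated at 0.067, 0.119, 0.028 and 0.190, and those of the other pairs between −0.206 and 0.175. A replicate block gave −0.10 for *Ppargc1a*, −0.19 for *Igfbp1* and 1 gene called higher. It put 933 genes at an unadjusted p under 0.05, against 667 in the main fit. Among them were *Fbp1* at −0.54 (unadjusted p = 0.0267, adjusted p = 0.607, limma) and *Slc2a2* at −0.60 (unadjusted p = 0.0192, adjusted p = 0.600, limma). Depth is unknown, so counting error could not be separated from differences between mice.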

Other observations

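Immediate early genes, which respond within minutes to stress and handling, were higher in 12 and lower in 1 of the 13 tested (median log2 fold change 0.49), and 9 and 1 of those tested with median-of-ratios factors of all genes. *Id3* was at 30.6 ± 13.3 rescaled TPM (SD, n = 5) with apoC-III ASO and 11.5 ± 2.53 (SD, n = 4) with control ASO, without overlap between the groups, although they overlapped in TPM as deposited. Its apoC-III ASO replicates 1 to 3 were at 42.9, 36.9 and 40.6 and replicates 4 and 5 at 14.7 and 17.7, against 14.1 in the highest control, and its log2 fold change of 1.24 was 0.64 with the clock covariate. *Dusp1* was at 35.3 ± 15.3 against 13.3 ± 4.69, *Fos* at 3.40 ± 1.46 against 1.22 ± 1.296 and *Zfp36* at 28.6 ± 13.8 against 14.7 ± 3.92. Their adjusted p-values were between 0.762 and 0.876 (limma with Benjamini-Hochberg adjustment), so none was called. The lowest of the list, the transcription factor gene *Klf6*, was at −0.12 (SE 0.28), and at 0.11 without control ASO replicate 4.

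Clock genes were lower in 10 and higher in 4 of 14, which turned to 5 and 10 with no median-of-ratios factors. *Per2*, a repressor of the clock, was at 3.35, 8.31, 4.80, 25.1 and 40.5 rescaled TPM with apoC-III ASO and at 88.1, 130, 83.6 and 12.1 with control ASO, so control ASO replicate 4 lay with the treated livers for this gene while its *Arntl* and *Dbp* lay with the other controls. *Per3* had a log2 fold change of −1.80 (SE 0.81) and *Nfil3* of 0.96 (SE 0.30), with adjusted p = 0.876 and 0.860 (limma).

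Glycogen metabolism genes were higher in 5 and lower in 11 of 16, but 7 and 4 in TPM as deposited and 14 and 2 with no median-of-ratios factors. *Gyg*, the primer protein of glycogen, was at 0.858 ± 0.422 (SD, n = 5) against 1.92 ± 0.913 (SD, n = 4), and *Gys2*, the liver glycogen synthase, at 115 ± 86.8 against 182 ± 65.5. *Gys2* was at 92.0, 52.5 and 34.8 in apoC-III ASO replicates 1 to 3, below every control, and at 251 and 143 in replicates 4 and 5, and its log2 fold change of −0.93 was 0.0035 with the clock covariate. Of 8 glucose and lactate carriers, 3 were higher and 5 lower (5 and 3 with no median-of-ratios factors), and *Slc16a7*, a monocarboxylate carrier, differed by −1.03 on the log2 scale (SE 0.38, adjusted p = 0.860, limma), and by −0.64 without control ASO replicate 4, which was at 100.2 rescaled TPM against 27.9 to 43.7 in the other controls. The highest carrier was *Slc2a8*, which encodes GLUT8, at 0.36 (SE 0.27). Of 7 genes of IGF-binding proteins and IGF, 2 were higher and 5 lower (4 and 2 in TPM as deposited, 7 and 0 with no median-of-ratios factors), and their log2 fold changes ran from −0.43 (*Igfals*) to 0.19 (*Igfbp7*).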
